A study of Homo sapiens with 2 samples.

Results

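The 10 genes of non-homologous end joining studied here were read in 2 RNA-seq libraries of HEK293T, an established human line of embryonic kidney origin that carries adenovirus sequence and expresses the large T antigen of SV40. The genes were taken by symbol from a fixed list and all 10 of 10 were found once each among the 60664 genes of the files. Both libraries came from untreated, wild-type cells, the only group of the study, which belongs to work on mapping R-loops. No contrast is labelled, and whether separate cultures were used is not stated, so the replicate spread may be only technical. The cell line entry of replicate 2 reads HEK294T, whereas its title reads HEK293T, and the title was followed. The deposited counts totalled 18011638 in replicate 1 and 18575058 in replicate 2. A gene with 0 counts could still be at up to 0.167 CPM (counts relative to the library's total) in the first and 0.162 CPM in the second.

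Non-homologous end joining rejoins the ends of a broken DNA duplex without a matching template and works throughout the cell cycle. The Ku heterodimer, made of the XRCC6 (Ku70) and XRCC5 (Ku80) proteins, threads onto each end and brings in PRKDC, the catalytic subunit of DNA-PK. DCLRE1C (Artemis) and DNA polymerases such as POLL trim and fill the ends, and LIG4 seals them together with XRCC4, NHEJ1 (XLF) and PAXX, while TP53BP1 (53BP1) protects ends from resection and so favours this pathway.

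The line's identity was read from marker genes. Of 8 neuronal and nephron progenitor genes known from this line, 7 were detected, that is at 1 CPM or more in both libraries. Their summed levels with the undetected gene were 471 and 466 TPM (counts per base of exon, scaled to a common total). UCHL1 alone had 330 and 338 TPM of these sums. PAX2 was not detected, with 23 and 15 counts, and LHX1 was only just detected, with 25 and 34. Of 6 lymphocyte and blood genes, CD3D, CD3E and MS4A1 had 0 counts in both libraries. Fibroblast genes had 2 of 4 detected, with 2.83 and 2.31 TPM in sum and COL1A2 and DCN at 0. Endothelial genes had 0 of 4 detected, with 0.0633 and 0.035 TPM in sum and TEK and ERG at 0. In bulk RNA, a gene active in few cells and a low level in every cell cannot be told apart.

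The starts of the end joining genes were compared first, because 5 of the 10 lie close to another gene's start. A divergent start here is the nearest start of a protein-coding gene on the opposite strand, from the outermost deposited coordinates (GRCh38). It was taken on either side of the gene's own start, and 1000 bases was the limit. Starts of genes that overlap or point toward each other are therefore counted too. Of all 19890 protein-coding genes 13.2% had such a start, and of those detected in both libraries 18.0%. PRKDC lay 7 bases from the start of MCM4, a subunit of the replicative helicase. LIG4 lay 24 bases from ABHD13, XRCC6 120 bases from DESI1 and TP53BP1 230 bases from MAP1A, a microtubule-associated protein gene. The starts of XRCC4 and TMEM167A overlapped head to head by 365 bases. The nearest such starts to the other members were 4146 bases away for PAXX, 4956 for DCLRE1C, 15360 for NHEJ1, 17710 for POLL and 24509 for XRCC5. For PAXX and POLL the nearest start lies downstream, in a gene that points toward the member. The count of 5 was the same at limits of 500 and 2000 bases. With 10 genes chosen for their function this is a description of where they lie.

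The stretches before the gene starts of XRCC6 and PAXX, the most abundant members, and of LIG4 and TP53BP1, which share a short gap with another gene, are shown next. Each is the part of the RefSeq promoter window (GRCh38.p14) that lies before the gene's outermost deposited start and outside all deposited exons, written in the direction of the gene. For XRCC6 it is chr22:41621045-41621162 on the plus strand, for PAXX chr9:136992172-136992421 on the plus strand, for LIG4 chr13:108218369-108218391 on the minus strand and for TP53BP1 chr15:43510729-43510890 on the minus strand. Capitals mark exact matches, on either strand, to the GC box (GGGCGG), the CCAAT box (CCAAT), an ETS site (CCGGAAG), the TATA box (TATAAA), the cyclic AMP response element (TGACGTCA) or an NRF1 core (GCATGCG).
XRCC6: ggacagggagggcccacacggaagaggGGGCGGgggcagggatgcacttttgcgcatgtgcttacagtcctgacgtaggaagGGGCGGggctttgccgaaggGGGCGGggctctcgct
PAXX: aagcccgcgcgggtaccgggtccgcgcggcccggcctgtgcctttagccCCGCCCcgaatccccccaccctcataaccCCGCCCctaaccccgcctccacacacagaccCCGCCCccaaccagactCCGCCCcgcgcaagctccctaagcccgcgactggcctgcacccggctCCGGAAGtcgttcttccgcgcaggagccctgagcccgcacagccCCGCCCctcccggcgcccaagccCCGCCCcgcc
LIG4: tccgaGCATGCGcagaagccgct
TP53BP1: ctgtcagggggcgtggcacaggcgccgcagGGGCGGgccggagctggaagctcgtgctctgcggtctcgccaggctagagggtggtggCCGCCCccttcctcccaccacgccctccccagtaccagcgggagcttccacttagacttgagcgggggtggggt
The PAXX stretch of 250 bases was 75.6% G and C and held 6 GC boxes and 1 ETS site. The XRCC6 stretch of 118 bases held 3 GC boxes and the TP53BP1 stretch of 162 bases held 2. The whole gap between LIG4 and ABHD13, 23 bases, held 1 NRF1 core.

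RefSeq windows of 300 bases, 250 before a start and 50 after it, were given for 8 of the 10 members, and the window nearest the deposited start was used. A GC box was present in 6 of these 8 windows, against 56.3% of the 22198 windows of protein-coding genes, and a CCAAT box in 4 of 8, against 34.7%. An ETS site was present in 5 of 8 (LIG4, PAXX, POLL, TP53BP1 and XRCC4), against 12.8%. The NRF1 core was in 2 of 8 (LIG4 and XRCC6), against 4.63%, the TATA box in 1 (DCLRE1C), against 9.47%, and the cyclic AMP response element in 0, against 2.26%. The DCLRE1C window was also the least rich in G and C, at 47.0%, and the PAXX window the richest, at 75.7%, with a median of 58.7% over all 35116 windows. These matches are letters in a window and no binding was measured.

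All 10 members were detected, against 65.9% of protein-coding genes. Their median was 12.1 TPM (13.3 and 10.9 in the separate libraries), while protein-coding genes as a whole had a median of 2.88 TPM. Of the 10, 8 lay above that protein-coding median, and DCLRE1C and NHEJ1 lay just below it. The members spread over 128-fold in mean TPM, from NHEJ1 to XRCC6. XRCC6 alone held 45.5% and 49.6% of the members' summed TPM, PAXX 33.1% and 30.6%, and XRCC5 12.7% and 12.3%. The SD over both libraries (n = 2) follows each ± sign, and intervals in brackets are exact 95% Poisson intervals, which cover counting error only.

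**Figure D1:**
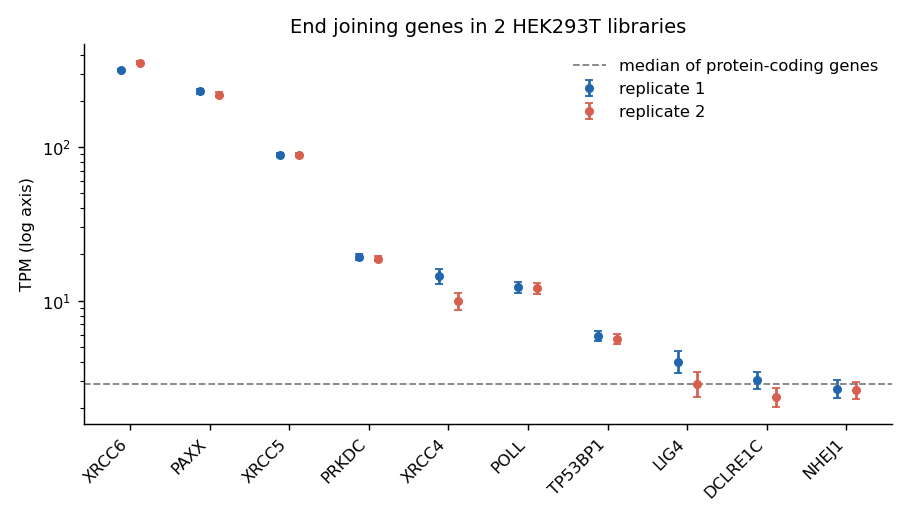
Level of each end joining gene in replicate 1 (blue) and replicate 2 (red), in TPM on a log axis, with exact Poisson intervals as bars and the median of all protein-coding genes, 2.88 TPM, as a dashed line. XRCC6, PAXX and XRCC5 stand above 80 TPM in both libraries, while LIG4, DCLRE1C and NHEJ1 lie at or near the dashed line.

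The end-binding genes covered a wide range. XRCC6 (ENSG00000196419), whose product Ku70 contacts the DNA end, lies on chromosome 22 from 41621163 to 41664048 and had 9022 counts in replicate 1 and 10852 in replicate 2. This was 501 CPM and 584 CPM. It was the highest member in both libraries, at 319 TPM [312 to 325] and 356 TPM [349 to 363], or 337 ± 26.3. XRCC5 (ENSG00000079246), which encodes Ku80, lies on chromosome 2 from 216107464 to 216206303 and had 4243 and 4543 counts, or 236 and 245 CPM. Its level was 89.0 and 88.5 TPM (88.8 ± 0.367). The 2 subunits form a heterodimer. The TPM of XRCC6 was 3.58 and 4.02 times that of XRCC5 (3.80 ± 0.312). The ratio was 2.95 and 3.32 with the length of the longest protein-coding transcript in place of the merged exons. XRCC6 was thus higher than XRCC5 in both libraries under both lengths.

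XRCC6 has processed copies elsewhere in the genome, and reads from such copies can be placed on either. The 5 pseudogenes named for it had 61 counts in replicate 1 and 68 in replicate 2 in sum, 0.676% and 0.627% of the XRCC6 counts. XRCC6P2 on chromosome X had 54 and 62 of these, XRCC6P1 had 7 and 6, and XRCC6P3, XRCC6P4 and XRCC6P5 had 0. The single pseudogene named for DCLRE1C, DCLRE1CP1, also had 0 counts in both.

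PRKDC (ENSG00000253729) lies on chromosome 8 from 47773111 to 47960178 and encodes a very large kinase. It had 2581 and 2705 counts, or 143 and 146 CPM, close in counts to PAXX. Its deposited exon length of 15409 bases, the longest of the members, brought this to 19.2 and 18.7 TPM (18.9 ± 0.365). Per length, XRCC5 was 4.64 and 4.74 times and XRCC6 16.6 and 19.1 times as high as PRKDC. The 3 genes kept the order XRCC6, XRCC5, PRKDC in both libraries, and their ranges did not overlap.

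Both end-processing genes were lower. POLL (ENSG00000166169), a gap-filling DNA polymerase of family X on chromosome 10 from 101578882 to 101588270, had 575 and 610 counts, or 31.9 and 32.8 CPM. This gave 12.2 and 12.0 TPM. DCLRE1C (ENSG00000152457), the nuclease that opens hairpin ends, lies on chromosome 10 from 14897359 to 14954432 and had 253 and 211 counts, or 14.0 and 11.4 CPM. Its level was 3.02 TPM [2.66 to 3.42] and 2.34 TPM [2.04 to 2.68]. PRKDC, which activates this nuclease, was 6.35 and 7.98 times as high as DCLRE1C by TPM, and 2.67 and 3.35 times with transcript lengths.

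The ligation genes held both the second highest and the lowest member. PAXX (ENSG00000148362), a small paralogue of XRCC4 and NHEJ1 on chromosome 9 from 136992422 to 136993984, had 2759 and 2815 counts, or 153 and 152 CPM. With an exon length of 1363 bases, the shortest of the members, this was 232 and 220 TPM (226 ± 8.64). XRCC4 (ENSG00000152422), the scaffold of the ligase on chromosome 5 from 83077498 to 83353787, had 335 and 249 counts, or 18.6 and 13.4 CPM. Its level was 14.4 TPM [12.9 to 16.0] and 9.91 TPM [8.71 to 11.2], so the counting intervals of the libraries did not overlap. LIG4 (ENSG00000174405), the ligase itself on chromosome 13 from 108207439 to 108218368, had the fewest counts, 153 and 118, or 8.49 and 6.35 CPM. It stood at 4.00 TPM [3.39 to 4.68] and 2.86 TPM [2.37 to 3.43]. NHEJ1 (ENSG00000187736), which bridges ends with XRCC4, lies on chromosome 2 from 219069357 to 219160865 and had 211 and 222 counts, or 11.7 and 12.0 CPM. It had 2.67 and 2.61 TPM.

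Of the paralogues PAXX, XRCC4 and NHEJ1, PAXX stood far above the others. It was 87.0 and 84.4 times NHEJ1 and 16.2 and 22.2 times XRCC4 by TPM, and 33.7 and 32.7 times NHEJ1 with transcript lengths. XRCC4 was 5.38 and 3.80 times NHEJ1, but 1.96 and 1.38 times with transcript lengths. XRCC4 was 3.59 and 3.46 times its partner LIG4, and 5.40 and 5.20 times with transcript lengths. The order of XRCC4 over LIG4 held in both libraries.

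TP53BP1 (ENSG00000067369), the chromatin reader on chromosome 15 from 43403061 to 43510728, had 669 and 683 counts, or 37.1 and 36.8 CPM. Its exon length of 12976 bases gave 5.91 and 5.60 TPM (5.76 ± 0.218). It shares 28.8% of its exonic bases with TUBGCP4 on the opposite strand, which had 522 and 527 counts. The sources used here do not give the strand setting of the counting, so this value is uncertain.

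Exons of 5 of the 10 members overlap another gene's. The share of all genes with such an overlap was not computed, so this count only marks which values are less certain. NHEJ1 shares 29.8% of its exonic bases, of which ENSG00000280537 on the same strand covers 22.4% of NHEJ1 and had 167 and 189 counts, and ENSG00000286606 on the opposite strand covers 7.34%. The value of NHEJ1 is therefore uncertain as well. POLL shares 4.48% with DPCD, DCLRE1C 1.66% with SUV39H2 and PRKDC 1.03% with ENSG00000287959. XRCC6, PAXX, XRCC5, XRCC4 and LIG4 share none.

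By mean TPM the order was XRCC6, PAXX, XRCC5, PRKDC, XRCC4, POLL, TP53BP1, LIG4, DCLRE1C and NHEJ1. The ranges of the 2 libraries overlapped for XRCC4 and POLL, for LIG4 and DCLRE1C, and for DCLRE1C and NHEJ1, so those neighbours did not differ beyond their spread. The other neighbours did not overlap. The smallest step among them was the one from PAXX to XRCC6, 1.49-fold. Among all protein-coding genes by mean TPM, XRCC6 stood at percentile 98.6, PAXX at 97.9, XRCC5 at 94.7 and PRKDC at 79.7, while DCLRE1C and NHEJ1 stood at 49.0 and 48.8.

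**Figure D2:**
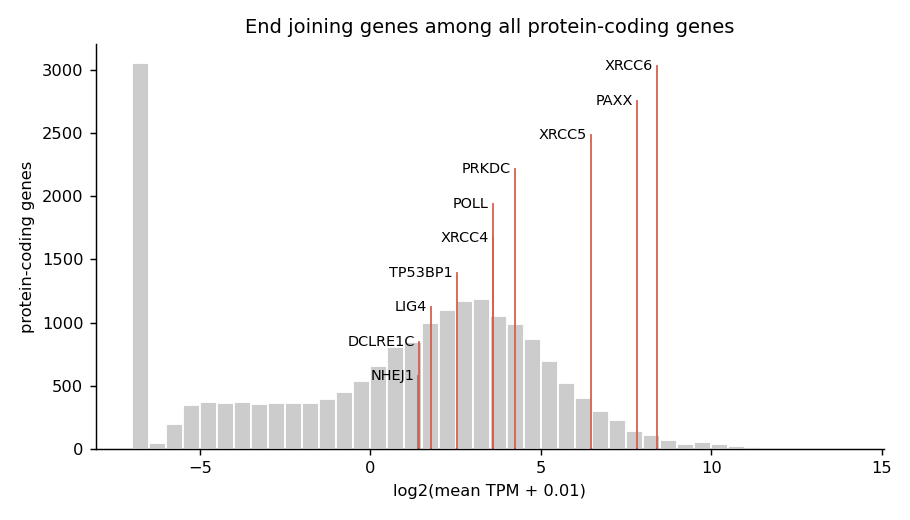
Number of protein-coding genes by log2(mean TPM + 0.01), with the end joining genes marked by red lines whose height carries no value. The leftmost bar holds the genes at or near 0 counts, and XRCC6, at percentile 98.6, stands in the right tail while NHEJ1, at 48.8, stands in the middle.

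Parts of this order depend on the gene length used. The deposited length merges all annotated exons, and for NHEJ1 it was 9069 bases, 4.33 times the 2094 bases of its longest protein-coding transcript. For DCLRE1C it was 9592 against 3532 bases, and for LIG4 4388 against 4180. TPM with transcript lengths was scaled over genes with a protein-coding transcript only, so its levels shift for that reason too. Ratios between genes of a library do not. With transcript lengths NHEJ1 stood at 10.7 and 10.8 TPM and DCLRE1C at 7.60 and 6.06, while LIG4 stood at 3.89 and 2.87 and became the lowest member. POLL moved to 21.9 and 22.2 TPM, above PRKDC at 20.3 in both. XRCC6, PAXX and XRCC5 were still the highest 3, at means of 380, 356 and 121 TPM. XRCC6 and PAXX no longer differed beyond their spread, with 354 and 407 TPM for XRCC6 and 361 and 352 for PAXX, and PAXX was the higher of them in replicate 1. By CPM, which uses no length, LIG4 was also lowest, and PAXX stood below XRCC5. With transcript lengths and by CPM, 9 of the 10 members lay above the protein-coding median of that measure, and LIG4 lay below it.

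**Figure D3:**
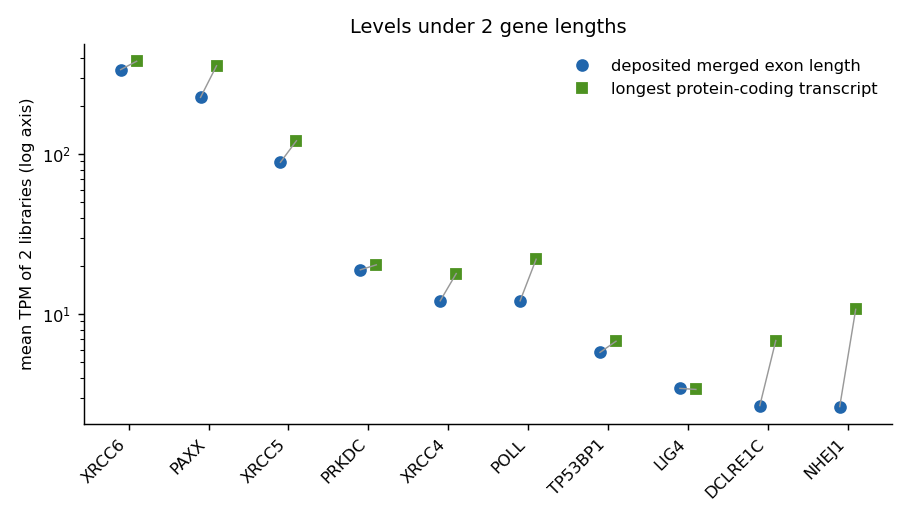
Mean TPM of each end joining gene over the 2 libraries, on a log axis, computed with the deposited merged exon length (blue circles) and with the longest protein-coding transcript (green squares). NHEJ1 moves most, from 2.64 to 10.7 TPM, and LIG4 hardly moves, from 3.43 to 3.38. The green values are scaled over genes with a protein-coding transcript only.

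The members were also compared between the libraries. None of the 10 was lower or higher in replicate 2 by 0.5 log2 or more. Among the 14704 genes whose mean count was at least 50, 8.84% were lower and 2.86% higher. For a list of 10 genes this count is near those shares, so it does not set the members apart from other genes. The log2 ratios of replicate 2 over replicate 1, scaled with TMM factors, ran from -0.44 for XRCC4 to 0.25 for XRCC6, with a median of 0.03. The exact 95% binomial interval of the CPM ratio, which covers counting error only, left out 1 for XRCC6, XRCC4, LIG4 and DCLRE1C. The share of all genes with such an interval was not computed, so nothing particular to the members can be read from it. XRCC6 had a CPM ratio of 1.17 [1.13 to 1.20], XRCC4 0.721 [0.609 to 0.852], LIG4 0.748 [0.583 to 0.957] and DCLRE1C 0.809 [0.670 to 0.975]. Each side of the ratio is a single library, so no replicate check or p-value can be given.

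The 3 members that were lower in replicate 2 were the 3 whose transcripts hold the least G and C. LIG4 (log2 ratio -0.38) had 36.2%, XRCC4 (-0.44) 36.7% and DCLRE1C (-0.27) 41.3%, and the other 7 ran from 44.2% in XRCC5 to 66.1% in PAXX. Genes poor in G and C were also lower in replicate 2 across the whole table. Among 1829 genes under 40% G and C the median ratio was -0.34 and 31.9% were lower by 0.5 log2 or more, against a median of 0.09 and 3.47% among 1957 genes at 60% or more. After centring on G and C content, XRCC4 stood at 0.03, LIG4 at 0.09 and DCLRE1C at -0.13, while XRCC6 remained at 0.19. XRCC6 had 50.7% G and C, in the class from 50% to 55% with a median of 0.07.

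**Figure D4:**
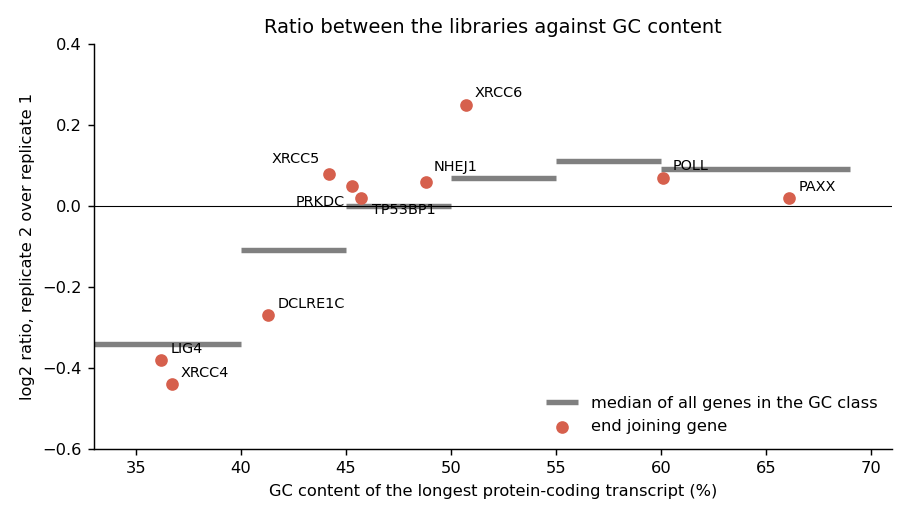
Log2 ratio of replicate 2 over replicate 1 for each end joining gene (red) against the G and C content of its longest protein-coding transcript in percent, with the median ratio of all genes in each of 6 classes of G and C content as grey bars; the outermost classes are drawn to 33% and 69%. LIG4 and XRCC4 lie at -0.38 and -0.44 beside a class median of -0.34, and XRCC6 lies at 0.25 above its class median of 0.07.

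Levels across a shared start were compared in TPM with the deposited exon lengths only. XRCC6, TP53BP1, PRKDC and XRCC4 each differed from the gene across the start beyond the spread of the libraries. How often other pairs of genes differ in this way was not computed, so nothing particular to these pairs can be read from it. DESI1 had 16.1 ± 0.0995 TPM, so XRCC6 was 20.9 times as high. TP53BP1, whose value is uncertain, was 8.34 times as high as MAP1A (0.69 ± 0.0142 TPM). PRKDC was at 0.266 times MCM4, which had 71.1 ± 0.917 TPM, and XRCC4 at 0.404 times TMEM167A (30.0 ± 4.22). LIG4 was at 0.736 times ABHD13, whose 5.72 and 3.61 TPM overlap the range of LIG4, so this pair did not differ beyond its spread. ABHD13 had 265 and 180 counts, a log2 ratio of -0.57 before centring on G and C content. Its centred ratio is not given here, and that of LIG4 was 0.09. Whether the levels of this pair move together was not tested.

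Other genes of break repair were read from lists of related function. Of 8 accessory end-processing genes 7 were detected, at a median of 7.07 TPM. TDP2, which removes trapped topoisomerase II, had 34.5 ± 5.06 TPM. APLF, a Ku-binding scaffold, had 0.916 ± 0.344 TPM (72 and 45 counts), and DNTT, the template-free polymerase of lymphocytes, had 0 counts in both. APLF was the 1 gene of this list that passed 0.5 log2, at -0.67 before centring on G and C content. Other genes cover 22.9% of its exonic bases.

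All 10 genes around 53BP1 and its ubiquitin and shieldin partners were detected, at a median of 11.1 TPM. H2AX, the histone variant phosphorylated at breaks, led with 237 ± 5.72 TPM, followed by the shieldin subunit MAD2L2 with 72.4 ± 2.78. RIF1, which acts directly downstream of 53BP1, had 5.25 ± 1.75 TPM and the ubiquitin ligase RNF168 had 2.73 ± 0.348. RIF1 had 1028 and 685 counts and was the only one of these 10 to pass 0.5 log2 (-0.60 before centring on G and C content).

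The 9 genes of alternative end joining and resection were all detected, at a median of 10.8 TPM, and 0 of them passed 0.5 log2. PARP1, which senses breaks, had 68.9 ± 3.91 TPM and the resection factor RBBP8 (CtIP) 26.5 ± 5.19. POLQ, the polymerase of theta-mediated joining, had 5.02 ± 0.807 TPM. LIG3, a ligase of that list, had 3.13 ± 0.00526 TPM, beside 3.43 ± 0.802 for LIG4, so the ranges of LIG3 and LIG4 overlapped. LIG1, another ligase of the list, was higher, at 22.0 ± 2.12 TPM. The value of LIG3 is uncertain, since other genes cover 30.5% of its exonic bases.

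Of the 3 genes specific to V(D)J recombination, in which end joining completes antigen receptor genes, DNTT had 0 counts and RAG1 had 5 and 2. RAG2 had 255 and 334 counts, or 8.35 and 10.2 TPM, and its value is uncertain because other genes cover 27.4% of its exonic bases.

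**Figure D5:**
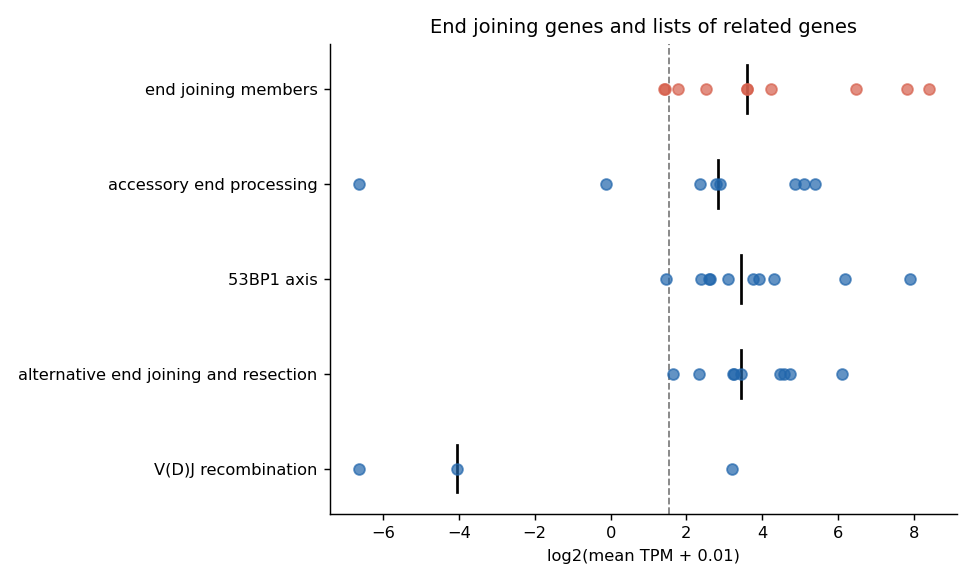
Log2(mean TPM + 0.01) of the end joining genes (red) and of the genes of 4 related lists (blue), 1 point a gene, with black bars at list medians and the median of all protein-coding genes as a dashed line. With the deposited exon lengths the end joining genes reach highest, at XRCC6. By CPM, PARP1 (589 and 667) lies above XRCC6 (501 and 584). DNTT, at 0 counts, appears at the left edge in both lists that hold it.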

How the data were processed

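Oligo(dT)-primed cDNA of DNase-treated RNA was sequenced, 1 library per file, per the labels' protocols. The deposited values are raw, unnormalised counts per Ensembl gene, per the file headers. Per the submitters' processing notes, Trim Galore 0.6.7 and featureCounts 2.0.3 were used on build GRCh38. The sources used here do not give the aligner, the annotation release or how strand and overlaps were handled. Symbols matched 60463 of 60664 IDs. Gene types, transcript lengths and G and C content came from GENCODE 29 (58396 IDs), on the same build.

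CPM and TPM were computed from the counts and deposited exon lengths, over all genes. TPM with transcript lengths was scaled over genes with a protein-coding transcript only. Ratios used edgeR 4.0.16 (TMM factors 1.01 and 0.989, prior count 2) in R 4.3.3, and DESeq2 1.42.0 size factors as an alternative. Ratios were centred on G and C content by the median of 20 bins. No test was run, because there is 1 group. Oligo(dT) priming reads RNAs with a poly(A) tail. Of genes simulated as lowered 2-fold, 97% were lower by 0.5 log2 or more, as were 2.46% of 14504 unchanged genes (14704 genes run). The simulation used an assumed spread between libraries and no shift with G and C content. In the real libraries 8.84% of genes were lower by that much, so 2.46% is not an error rate for these data.

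The members and gene lists were chosen with earlier results of these data known. All members were named. Of each related list the highest 2, lowest 2 and undetected genes were named, with genes overlapping a member or within 1000 bases of its start. LIG1 was named as well, beside LIG3. Likeness of pattern was not computed, since 2 libraries of 1 group give none. Some genes that the rule takes are left unreported, though list counts and medians include them.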

Additional observations from a re-analysis of the deposited data

How the results depend on the processing

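The median of the end joining genes, 12.1 TPM, was 19.1 TPM with transcript lengths and the scaling total of that measure (3.78 for all protein-coding genes). The same median was 34.7 as CPM (8.61 for all), and 15.5 TPM without TP53BP1 and NHEJ1, which share 25% or more of their exonic bases. It ranged from 10.9 to 13.3 TPM with 1 library left out. The ratio of XRCC6 to XRCC5, 3.80, was 3.13 with transcript lengths and 2.26 as CPM. It was 3.83 with the XRCC6 pseudogenes added, and 3.58 to 4.02 with 1 library left out. All 10 members were detected at 0.5 and at 5 CPM and in each library alone. None passed 0.5 log2 between the libraries under the other scalings, prior count, count filters and G and C centring that were run. Against library totals alone, PAXX and TP53BP1 turned from 0.02 to -0.02 and -0.01, and G and C centring turned the signs of 4 members, XRCC4, LIG4, PAXX and POLL (the last pair to -0.04). Depth limits LIG4 most, with 153 and 118 counts. No paired analysis was possible because the labels give 1 group.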
